A study of Mus musculus with 6 samples.

Results

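The choroid plexus is the epithelium that hangs into the ventricles beside the cerebellum, and 10 genes that are known from it were followed here through every nucleus of a cerebellar single nuclei RNA sequencing series: *Ttr*, *Enpp2*, *Folr1*, *Kl*, *Kcne2*, *Sostdc1*, *Slc4a5*, *Htr2c*, *Prlr* and *Otx2*. They were chosen as a list of choroid plexus genes among the 32286 genes of the count tables, and all 10 were present in every table. Whole cerebella came from 3 SCA1 and 3 wild-type (WT) mice, all aged 12 weeks and of the C57Bl6 background, with 1 library per mouse. SCA1 mice (*Pcp2-ATXN1[82Q]*) express a human *ATXN1* gene lengthened by CAG repeats from the promoter of *Pcp2*, a gene of Purkinje cells, and WT mice were littermates without the transgene. Neither group received a treatment. For each gene, unique molecular identifiers (UMIs, each standing for a captured transcript) were summed per mouse over the nuclei that the authors' SingleR annotation labelled Choroid_Plexus.Ttr, and over the nuclei of the 23 other labels. Of 45473 nuclei, 83 had the choroid plexus label. A level is the count of a gene per 1000000 UMIs of such a sum (CPM).

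Choroid plexus epithelial cells secrete cerebrospinal fluid and supply it with carrier proteins and growth factors. Transthyretin, the product of *Ttr*, carries thyroid hormone and, with retinol-binding protein, vitamin A, and its transcript is among the most abundant in this epithelium. *Enpp2* encodes autotaxin, which makes lysophosphatidic acid, *Kl* encodes the anti-ageing protein klotho, and *Sostdc1* a secreted inhibitor of BMP and Wnt signals. *Folr1* encodes a folate receptor, *Htr2c* a serotonin receptor and *Prlr* the prolactin receptor. *Kcne2* encodes a potassium channel subunit, *Slc4a5* a sodium bicarbonate cotransporter, and *Otx2* a homeodomain factor that acts in choroid plexus development and upkeep. When nuclei are isolated in suspension, RNA of broken cells can enter droplets that hold another nucleus, so that transcripts of an abundant source may be counted in nuclei that do not make them.

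Library totals ran from 18916647 to 98366627 UMIs and from 3354 to 10897 nuclei, with a median of 2246.5 to 7253 UMIs per nucleus. The lowest nucleus held 3890 UMIs in SCA1 mouse 1 and 3932 UMIs in WT mouse 1, against 1000 to 1739 UMIs in the other 4 libraries. SCA1 mouse 1 and WT mouse 1 also have library numbers in a lower range than the other 4 mice, and this range was taken as the batch. Of 45219 different barcodes, 254 were seen in more than 1 library.

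The label was checked first, and in 3 of 6 mice the data went against it for all labelled nuclei. In SCA1 mouse 1, WT mouse 2 and WT mouse 3 they did so for 13, 10 and 6 labelled nuclei, by the division described below. Nuclei of the choroid plexus label numbered 27, 13 and 5 in the 3 SCA1 libraries and 14, 14 and 10 in the 3 WT libraries. Their share was 0.248%, 0.180% and 0.0732% of all nuclei of SCA1 mice and 0.134%, 0.209% and 0.298% of those of WT mice. *Ttr* stood at 14023 CPM in these nuclei in SCA1 mouse 1, 8781 CPM in WT mouse 2 and 3715 CPM in WT mouse 3. In SCA1 mice 2 and 3 and WT mouse 1, the labelled nuclei held 0 *Ttr* UMIs, which allows at most 23.8, 34.6 and 17.3 CPM. *Kl*, *Kcne2*, *Sostdc1*, *Slc4a5* and *Prlr* were at 0 UMIs in the same 3 sets of nuclei, while *Htr2c* was at 0, 0 and 1 UMI.

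The 83 labelled nuclei fell into a pair of kinds with a gap between them. In 22 nuclei, 7 to 10 of the 10 genes were detected, in 61 nuclei 0 to 4 were, and no nucleus held 5 or 6. This division was made after the values were seen, and it is a description with no test. The 22 nuclei with at least 7 of the genes comprised 14 from SCA1 mouse 1, 4 from WT mouse 2 and 4 from WT mouse 3. Their *Ttr* counts ran from 22 to 1165 UMIs with a median of 298.5 in SCA1 mouse 1, from 49 to 133 with a median of 90 in WT mouse 2, and from 25 to 170 with a median of 137 in WT mouse 3. Counted together, these 22 nuclei held 12398 CPM of *Htr2c*, 9377 CPM of *Enpp2*, 641 CPM of *Kl* and 331 CPM of *Folr1*. They also held 777 CPM of *Clic6* and 388 CPM of *Kcnj13*, an ion channel protein and a potassium channel from the list of other choroid plexus genes. Of the 26 genes of that list, each of these nuclei had 9 to 20, and the other 61 labelled nuclei had 0 to 10.

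The other 61 labelled nuclei held markers of ciliated ependymal cells, which line the ventricles. Each had 3 to 6 of the 6 ependyma markers, with a summed level of 7958 CPM, against 228 CPM in the 22 nuclei. *Dnah12*, a motor protein of cilia, stood at 2296 CPM in the 61 and 3.56 CPM in the 22, and *Tmem212* at 1611 CPM and 0. *Rarres2* was at 557 CPM in the 61 and 3.56 CPM in the 22. Their *Ttr* counts were 1 to 6 UMIs in SCA1 mouse 1, and 0 to 2 UMIs in every other mouse, which is within the range that nuclei of other labels had in the same mice. *Folr1* stood out among the 10 genes. It was at 55.6 CPM in the 61 nuclei and 331 CPM in the 22, against 0.753 CPM in the nuclei of all other labels, and in WT mouse 1 it gave 14 UMIs in labelled nuclei that held no *Ttr*. In Seurat clustering, the 27 labelled nuclei of SCA1 mouse 1 and the 14 of WT mouse 1 sat in clusters whose most frequent label was the choroid plexus label, whereas in the other 4 mice no cluster had it as its most frequent label.

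**Figure D1:**
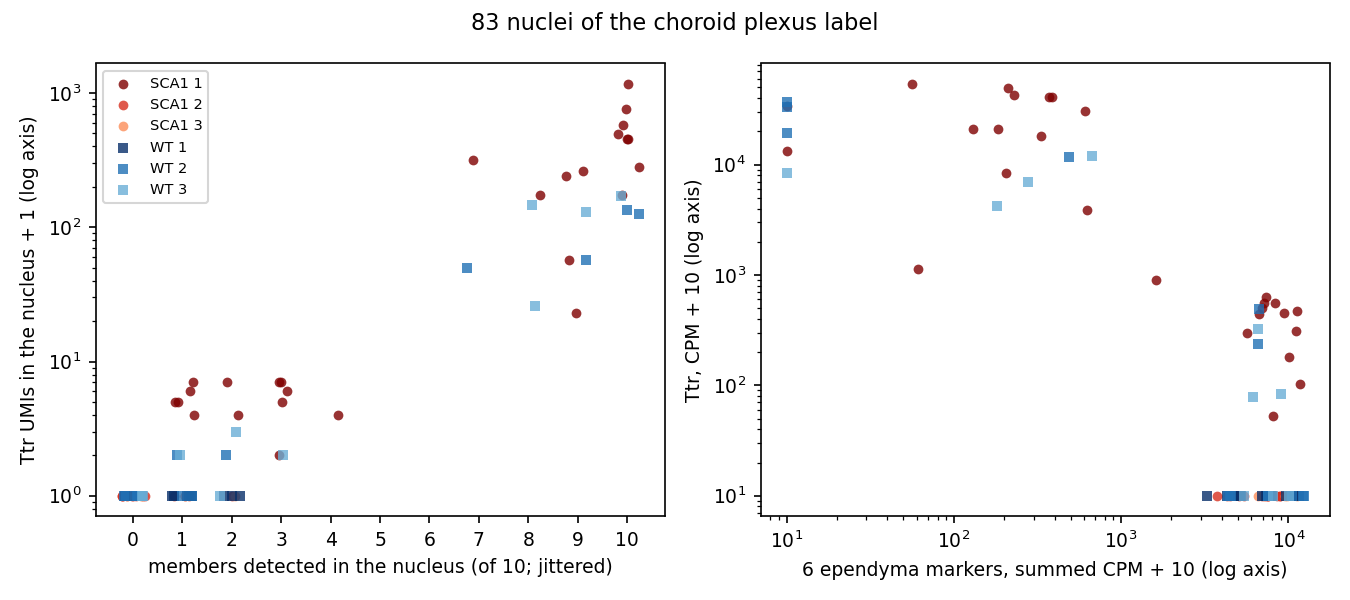
The 83 nuclei of the choroid plexus label, 1 point per nucleus, coloured by mouse with circles for SCA1 and squares for WT. On the left, *Ttr* UMIs plus 1 (log axis) against the number of the 10 genes detected; no nucleus has 5 or 6. On the right, *Ttr* CPM against the summed CPM of 6 ependyma markers (both plus 10, log axes); the 22 nuclei with at least 7 of the genes lie to the upper left, and the 61 others to the lower right.

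Outside the choroid plexus label, the level of *Ttr* differed between mice by 2347-fold. Summed over all other nuclei, *Ttr* was at 610 CPM in SCA1 mouse 1, 1.77 CPM in SCA1 mouse 2, 0.260 CPM in SCA1 mouse 3, 3.01 CPM in WT mouse 1, 90.6 CPM in WT mouse 2 and 111 CPM in WT mouse 3. The 3 mice at 90.6 CPM or above were the 3 mice that had nuclei with at least 7 of the genes, and the 3 mice at 3.01 CPM or below had none. The SCA1 and WT groups overlapped, since SCA1 mice held both the highest and the lowest level. At least 1 *Ttr* UMI was found in 98.8% of the 10870 other nuclei of SCA1 mouse 1, in 56.1% and 21.0% of those of WT mice 3 and 2, and in 0.653%, 0.176% and 2.56% of those of SCA1 mice 2 and 3 and WT mouse 1. In these data the other nuclei thus held most of the *Ttr* counted. They held 59810 UMIs against 5488 in labelled nuclei in SCA1 mouse 1, 1710 against 364 in WT mouse 2 and 3124 against 473 in WT mouse 3, or 91.6%, 82.4% and 86.9% of each library's *Ttr*.

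In the 3 mice with nuclei rich in these genes, *Ttr* was spread over the labels more evenly than their depth was. In SCA1 mouse 1, granule neurons had 5.49 *Ttr* UMIs per nucleus, Purkinje cells (PCs) 6.26, Bergmann glia (BG) 5.40, velate astrocytes (VA) 6.18 and oligodendrocytes (OL) 5.31. Over the 11 labels with at least 20 nuclei in every mouse, the number of *Ttr* UMIs per nucleus varied 1.21-fold, while the UMIs of all genes per nucleus varied 4.96-fold. Because it is divided by that depth, the CPM of *Ttr* varied 4.34-fold, from 161 in PCs to 699 in granule neurons. The same was seen at lower levels in WT mouse 3, where *Ttr* UMIs per nucleus ran from 0.667 to 1.29, a 1.94-fold range against 5.23-fold in depth. In WT mouse 2 they ran from 0.171 to 0.391, a 2.29-fold range against 8.19-fold in depth. Across the 11 labels, which share a library, the Pearson correlation of log depth with log CPM was -0.99 for SCA1 mouse 1, -0.97 for WT mouse 2 and -0.95 for WT mouse 3. With log *Ttr* UMIs per nucleus it was 0.53, -0.48 and -0.27.

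Granule neurons, with 37532 nuclei the most frequent label, allowed the same look within a single cell type, after they were divided by depth into 4 equal groups per mouse. In SCA1 mouse 1, the group with the lowest depth held 5183 UMIs and 5.15 *Ttr* UMIs per nucleus, and the group with the highest depth held 12558 UMIs and 5.81 *Ttr* UMIs per nucleus. Their *Ttr* level was 994 CPM and 463 CPM. In WT mouse 3 the *Ttr* UMIs per nucleus of these 2 groups were 0.785 and 1.00, and in WT mouse 2 they were 0.213 and 0.257. The SD over nuclei of the lowest group of SCA1 mouse 1 was 2.80, a variance of 1.52 times the mean, and in the next 3 groups by depth the variance was 1.87, 20.2 and 10.7 times the mean. In WT mouse 3 it was 1.15 to 6.55 times the mean over the 4 groups. A small number of nuclei stood above this spread. In SCA1 mouse 1, 31 other nuclei held 20 or more *Ttr* UMIs, and together they held 3.39% of the *Ttr* found outside the label. The 4 highest were all labelled as granule neurons and held 436, 328, 182 and 111 *Ttr* UMIs, with 109, 56, 40 and 13 *Enpp2* UMIs beside them. Only 1 nucleus outside the label held at least 7 of the 10 genes, a granule neuron of SCA1 mouse 1. Without the nuclei of 20 or more UMIs, *Ttr* in the other nuclei was 591 CPM in SCA1 mouse 1 and 108 CPM in WT mouse 3.

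**Figure D2:**
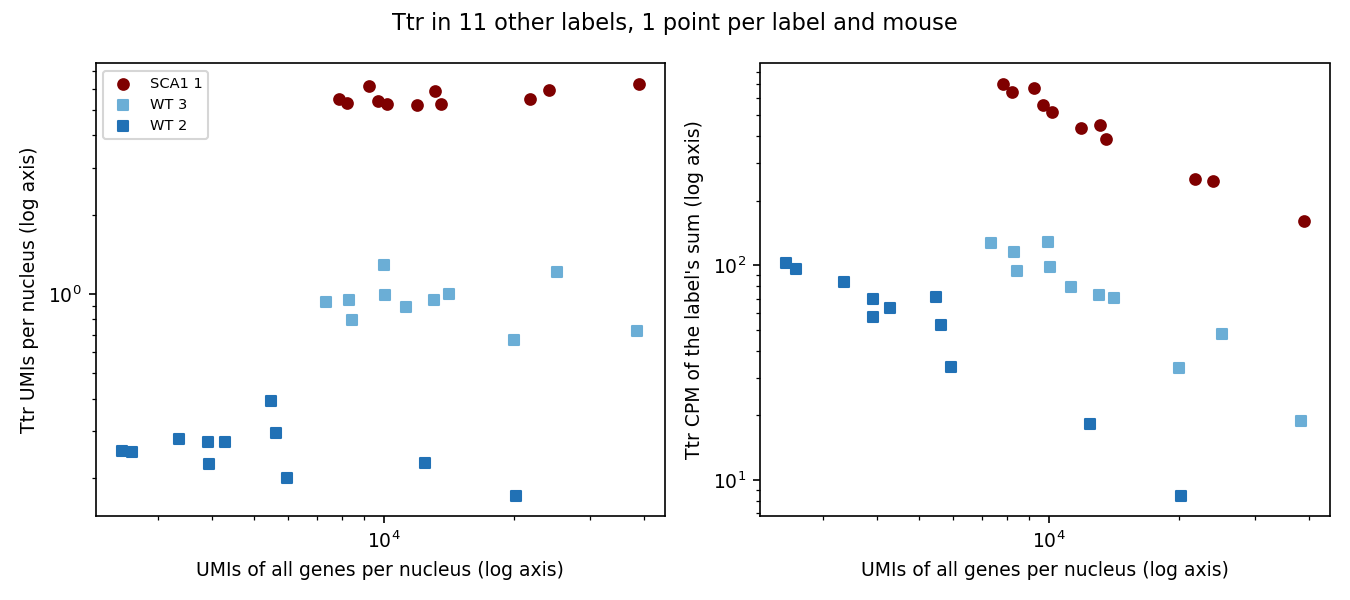
*Ttr* in the 11 labels with at least 20 nuclei in every mouse, 1 point per label and mouse, for the 3 mice with nuclei rich in the choroid plexus genes. *Ttr* UMIs per nucleus (left, log axis) stay at 5.20 to 6.26 in SCA1 mouse 1 over a 4.96-fold range of depth (log axis), and the CPM of the same sums (right, log axis) falls with depth.

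By CPM, though not all by UMIs per nucleus, *Folr1*, *Kl*, *Kcne2* and *Sostdc1* followed the mice in the same way at low counts. *Folr1* was at 2.12, 0.221 and 0.0186 CPM in other nuclei of SCA1 mice 1, 2 and 3 and at 0.0817, 0.636 and 0.570 CPM in WT mice 1, 2 and 3. *Kl* was at 3.87, 0.492 and 0.743 CPM in the SCA1 mice and 0.511, 1.70 and 1.28 CPM in the WT mice. *Sostdc1* was at 2.70, 0.123 and 0.0743 CPM in the SCA1 mice and 0.153, 0.318 and 0.570 CPM in the WT mice. For all 3, SCA1 mouse 1 had the highest CPM and WT mice 2 and 3 came next, as for *Ttr*. For *Sostdc1*, WT mouse 2 held 6 UMIs, and its interval (0.117 to 0.692 CPM) overlapped that of WT mouse 1 (0.0858 to 0.253 CPM). The *Folr1* interval of WT mouse 2 (0.329 to 1.11 CPM) overlapped that of SCA1 mouse 2 (0.101 to 0.420 CPM). By UMIs per nucleus, WT mouse 2 lay above WT mouse 1 for *Folr1* (0.00179 against 0.000766). It did not for *Kl* (0.00478 against 0.00479) or *Sostdc1* (0.000896 against 0.00144). *Kcne2* was at 0.990, 0.0492 and 0.111 CPM in the SCA1 mice and 0.184, 0.212 and 0.285 CPM in the WT mice, from 97, 2, 6, 18, 4 and 8 UMIs. This order also has SCA1 mouse 1 first and WT mice 3 and 2 next, but the counts of WT mice 1, 2 and 3 are too few to set those levels apart. WT mouse 2 held fewer *Kcne2* UMIs per nucleus (0.000597) than WT mouse 1 (0.00172) and SCA1 mouse 3 (0.000879).

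*Kl* in addition stood high in a particular other label. In nuclei labelled Endothelial_Tip.Dcn.Nnat, a label named for *Dcn*, a gene of fibroblasts, *Kl* was at 43.0, 39.4 and 34.3 CPM in the SCA1 mice and 28.0, 32.9 and 37.6 CPM in the WT mice, a 1.53-fold range. Among the 11 labels with at least 20 nuclei in every mouse, the lowest of these 6 values lay above the highest *Kl* value of the next label. The smaller label Endothelial_Tip.Dcn.Apod, with 2 to 10 nuclei per mouse, also held *Kl*, at 0 to 271 CPM from 0 to 5 UMIs per mouse. In granule neurons *Kl* was at 4.31 CPM in SCA1 mouse 1 and 0.0342 to 1.40 CPM in the other mice. *Folr1*, *Kcne2* and *Sostdc1* had no such label among the 11. Their highest median over mice in any of the 11 labels was 0.658, 0.804 and 0.529 CPM, and the ranges of neighbouring labels overlapped.

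**Figure D3:**
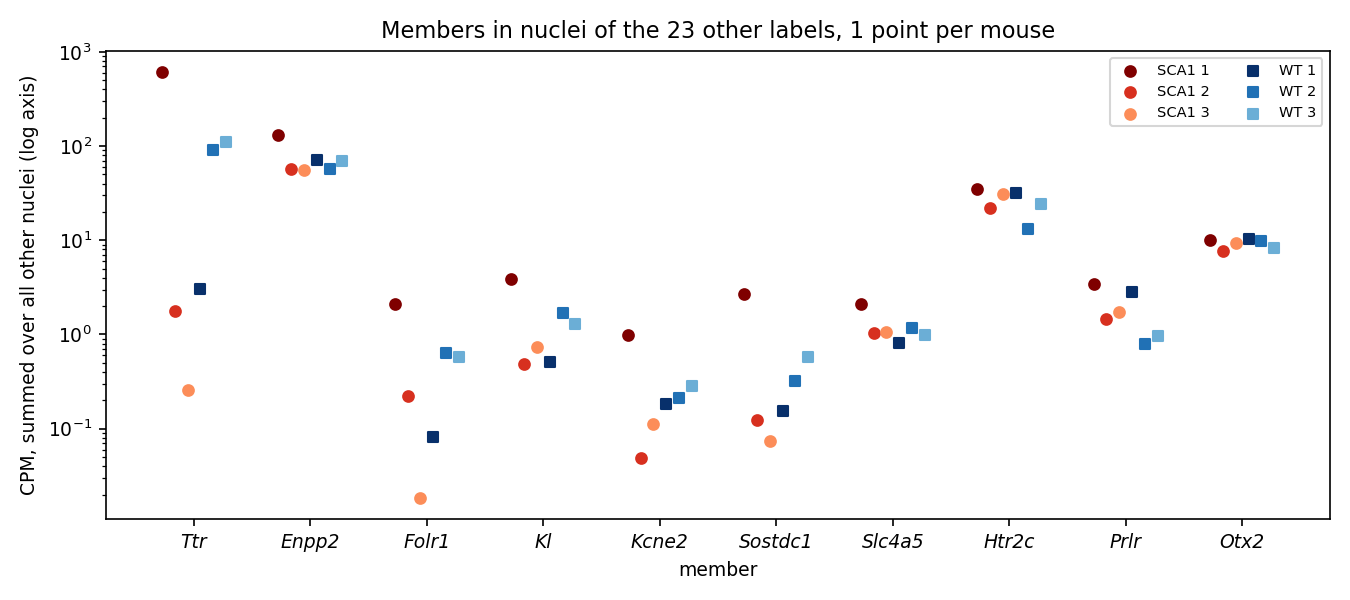
Level of each of the 10 genes summed over the nuclei of the 23 other labels (CPM, log axis), 1 point per mouse, circles for SCA1 and squares for WT. *Ttr* spreads from 0.260 to 610 CPM, *Otx2* from 7.72 to 10.3 CPM, and no gene separates the 3 SCA1 mice from the 3 WT mice.

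Several of the genes were found outside the label in other ratios to *Ttr* than in labelled nuclei. In SCA1 mouse 1, labelled nuclei held 16.4 *Folr1* UMIs per 1000 *Ttr* UMIs (95% exact Poisson interval 13.2 to 20.2), and granule neurons held 3.38 (2.88 to 3.95). *Kcne2* was at 8.75 (6.45 to 11.6) in labelled nuclei and 1.56 (1.22 to 1.95) in granule neurons, and *Kl* at 17.7 (14.3 to 21.6) and 6.17 (5.49 to 6.91). *Sostdc1* was at 5.65 (3.84 to 8.02) in labelled nuclei and 4.46 (3.89 to 5.10) in granule neurons, intervals that overlap. Of the labelled nuclei of this mouse, 13 were of the kind with ependyma markers and held 56 of the 5488 *Ttr* UMIs. In the 14 with at least 7 of the genes, a choice made after the values were seen, the ratios were 13.6 (10.7 to 17.1) for *Folr1*, 8.84 (6.52 to 11.7) for *Kcne2*, 17.7 (14.3 to 21.6) for *Kl* and 5.52 (3.73 to 7.88) for *Sostdc1*. Per 1000 *Ttr* UMIs, BG held 2.15 *Folr1* UMIs (0.585 to 5.50), OL 3.17 (1.16 to 6.90) and VA 7.95 (4.35 to 13.3), so that VA lay above granule neurons. For *Sostdc1* the values were 3.22 (1.18 to 7.01) in BG, 3.17 (1.16 to 6.90) in OL and 5.68 (2.72 to 10.4) in VA, all with intervals that overlapped that of granule neurons. The *Folr1* value of VA rests on 14 UMIs in SCA1 mouse 1. VA of WT mice 2 and 3 held 0 *Folr1* UMIs, beside only 33 and 50 *Ttr* UMIs. In WT mouse 3 the gap between labelled nuclei and granule neurons was wider for *Folr1*, at 38.1 (22.6 to 60.1), or 32.0 (17.9 to 52.8) in the 4 nuclei with at least 7 of the genes, against 4.26 (2.13 to 7.62). For *Sostdc1*, with 2 UMIs in labelled nuclei, it could not be resolved, at 4.23 (0.512 to 15.3) against 5.42 (2.96 to 9.09). In WT mouse 2, with fewer UMIs, the intervals overlapped for *Folr1*, at 11 (2.99 to 28.1) against 6.84 (3.28 to 12.6), and for *Kl*, at 35.7 (19.0 to 61.1) against 13.7 (8.35 to 21.1). For *Kcne2* they did not, at 16.5 (6.05 to 35.9) against 1.37 (0.166 to 4.94). These intervals cover counting error only. By GENCODE's annotation of GRCm38, *Sostdc1* spans 4314 bases on chromosome 12 (36314139 to 36318452) and *Ttr* 9042 bases on chromosome 18 (20665280 to 20674321). *Kl* spans 41211 bases on chromosome 5 (150952607 to 150993817), *Folr1* 12458 bases on chromosome 7 (101858331 to 101870788) and *Kcne2* 5741 bases on chromosome 16 (92292389 to 92298129). Whether gene length has a part in the ratios was not tested.

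The other 5 genes were each counted in particular other labels in every mouse. Whether the nuclei of those labels made these RNAs was not tested. *Enpp2* was at 923 to 1500 CPM in OL over the 6 mice, with a median of 1265 CPM, and at 142 to 344 CPM in the Endothelial_Tip.Dcn.Nnat label. Among the 11 labels, both ranges lay apart from the label next in order. Outside the 11, Oligodendrocyte.Trf.Klk6, with 1 to 8 nuclei in the 5 mice that had it, held 761 to 1635 CPM of *Enpp2*, and some small endothelial and Polydendrocyte labels overlapped the lower of the ranges. In granule neurons *Enpp2* was at 115, 19.0 and 10.4 CPM in SCA1 mice 1, 2 and 3 and 44.9, 21.5 and 28.2 CPM in WT mice 1, 2 and 3. SCA1 mouse 1 was thus the highest here too, but the next was WT mouse 1, which held no *Ttr*-rich nuclei. Per 1000 *Ttr* UMIs, labelled nuclei held 304 *Enpp2* UMIs in SCA1 mouse 1 (290 to 319) and granule neurons 165 (161 to 169), and in OL the value was 1603 (1546 to 1661).

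*Htr2c* was at 304 to 515 CPM in the label Neuron.Slc17a6.Nrgn, with a median of 363 CPM, and at 0 to 444 CPM in Neuron.Gad1Gad2.Pvalb-Chrm2, with a median of 296 CPM. It was at 40.1 to 442 CPM in Neuron.Gad1Gad2.Lgi2, a label with 12 to 84 nuclei per mouse. In granule neurons it was at 8.71, 2.84 and 1.58 CPM in SCA1 mice 1, 2 and 3 and 6.67, 1.82 and 2.60 CPM in WT mice 1, 2 and 3, so that both mice of the lower range of library numbers were the highest. Although labelled nuclei of SCA1 mouse 1 held 2423 *Htr2c* UMIs against 5488 of *Ttr*, all its other nuclei held 3459 of *Htr2c* against 59810 of *Ttr*.

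*Prlr* had a median of 19.3 CPM over mice in Neuron.Slc17a6.Nrgn (3.06 to 31.1 CPM) and of 8.49 CPM in VA (5.63 to 11.3 CPM), and among the 11 labels its range in VA lay above that of the next. Outside the 11, *Prlr* in Neuron.Gad1Gad2.Lgi2 ran from 0 to 10.8 CPM and overlapped that range. *Slc4a5* had medians of 14.5 CPM in Neuron.Gad1Gad2.Pvalb-Chrm2, 10.2 CPM in VA and 10.1 CPM in Neuron.Gad1Gad2.Pvalb-Cadm1, with ranges that overlapped. *Otx2* was nearly level over mice. In all other nuclei it was at 9.99, 7.72 and 9.35 CPM in the SCA1 mice and 10.3, 9.85 and 8.19 CPM in the WT mice, a 1.33-fold range, and in granule neurons it was at 9.88 to 12.3 CPM. In the small label Neuron.Slc17a6.Sln, with 11 to 26 nuclei per mouse, *Otx2* was at 38.2 to 65.5 CPM.

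**Figure D4:**
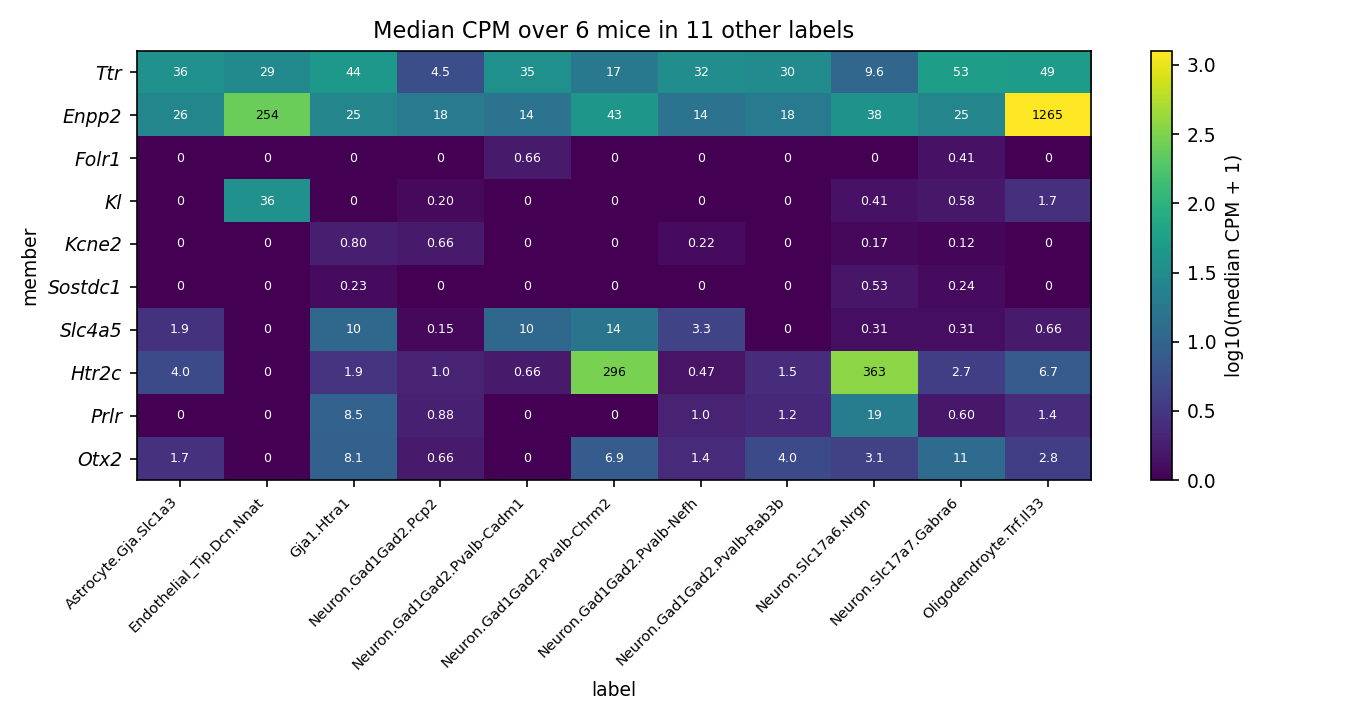
Median CPM over the 6 mice of each gene in the 11 other labels with at least 20 nuclei in every mouse (numbers in the cells; colour is log10 of the median CPM plus 1). *Enpp2* peaks at 1265 in the oligodendrocyte label, *Kl* at 35.9 in Endothelial_Tip.Dcn.Nnat and *Htr2c* at 363 in Neuron.Slc17a6.Nrgn, while *Folr1*, *Kcne2* and *Sostdc1* stay below 1 in every label.

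The comparison between genotypes asked whether these RNAs changed in cerebellar cells of SCA1 mice. None of the 10 genes was called in the nuclei of all other labels by edgeR's quasi-likelihood test, fitted with terms for genotype and for batch, at an adjusted p of at most 0.05. All 10 passed the filter on low counts, and 0.00512% of the 19538 genes tested were called, which is 1 gene. That gene, *Gm12160*, stood at 4.42, 9.88 and 7.54 CPM in the SCA1 mice and 0.0511, 0.0530 and 0.0712 CPM in the WT mice. At an unadjusted p under 0.05, 402 genes passed and none of the 10 did. DESeq2 called 19 genes, and the fit with the replicate number as a replicate block in place of batch called 29, again with none of the 10. For no gene of the 10 were the levels of the SCA1 mice all above or all below those of the WT mice, which was so for 4.02% of the genes tested.

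*Ttr* averaged 204 CPM ± 352 (SD, n = 3) in other nuclei of SCA1 mice and 68.3 CPM ± 57.5 in those of WT mice. Its log2 fold change was -4.90 with an SE of 3.69 (edgeR, adjusted p = 1.00), and with genotype as the only term it was 1.43 with an SE of 2.24 (adjusted p = 1.00). The sign thus depended on the batch term, and the batches went opposite ways. SCA1 mouse 1 was 203-fold above WT mouse 1, and SCA1 mice 2 and 3 were on average 148-fold below WT mice 2 and 3. Without SCA1 mouse 1 the log2 fold change was -6.79 (edgeR, adjusted p = 0.520), and without SCA1 mouse 2 it was 0.13 (adjusted p = 1.00). The same reversal between batches held for the CPM of *Folr1*, *Kl*, *Kcne2* and *Sostdc1*, at low counts. By UMIs per nucleus, SCA1 mice 2 and 3 overlapped WT mice 2 and 3 for *Kl* and *Kcne2*. The largest log2 fold change among the other 9 genes was that of *Prlr*, at 0.58 with an SE of 0.27 (edgeR, adjusted p = 1.00), while *Otx2* was at -0.10 with an SE of 0.18.

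In single cell types, *Ttr* was not called in any of 5 when the nuclei of all 6 mice were summed per mouse and lowly counted genes were filtered out. With no filter it was called in OL (log2 fold change -2.40, edgeR adjusted p = 0.0199), where 0.0232% of genes were. This call rests on 0 *Ttr* UMIs in OL of SCA1 mice 2 and 3 and is not a measured fold. With no batch term, *Ttr* in OL had the opposite sign in the filtered fit. In PCs it was at 161, 0 and 0 CPM in the SCA1 mice and 0.617, 8.44 and 18.8 CPM in the WT mice, with a log2 fold change of 0.92 and an SE of 2.07 (edgeR, adjusted p = 0.999). In BG it was at 557, 2.92 and 0 CPM in the SCA1 mice and 1.55, 70.0 and 98.3 CPM in the WT mice (log2 fold change -1.81, SE 2.41). In VA it was at 669, 4.58 and 0.996 CPM against 3.75, 83.9 and 94.0 CPM (-1.27, SE 2.08). In OL it was at 645, 0 and 0 CPM against 2.43, 95.9 and 115 CPM (-2.48, SE 2.64), and in granule neurons at 699, 2.09 and 0.280 CPM against 3.54, 103 and 127 CPM (-4.85, SE 3.59). In every cell type a single SCA1 mouse lay above all WT mice and the other two lay below WT mice 2 and 3. The adjusted p was 1.00 in the latter 4, and the share of all genes called was 0% in PC, BG and VA, 0.00917% in OL and 0.00566% in granule neurons. DESeq2 called 66, 2, 0, 1 and 14 genes in PC, BG, VA, OL and granule neurons, and *Ttr* in none. With the replicate block in place of batch, 172, 8, 1, 1 and 6 genes were called in these cell types, *Ttr* was not among them, and its log2 fold change in VA turned to 0.54 (SE 1.39).

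The result differed when single nuclei were taken as replicates. When limma-trend was run on the scran-normalized value of every nucleus, with the same terms, *Ttr* was higher in SCA1 nuclei in PC (log2 difference 0.88, adjusted p = 6.29e-09), BG (1.06, adjusted p = 3.97e-76), VA (1.05, adjusted p = 6.55e-58) and OL (0.99, adjusted p = 3.03e-74). The same test called 1.90% of genes in PC, 1.58% in BG, 0.652% in VA and 0.705% in OL. That test does not hold nuclei of a mouse together, and among SCA1 nuclei with these labels SCA1 mouse 1 held 407 *Ttr* UMIs in PCs, 1894 in OL, 1862 in BG and 1760 in VA, while SCA1 mice 2 and 3 held 0 to 5 in each. When SCA1 mouse 1 was left out of the sums, the comparison was called in the opposite direction in BG (log2 fold change -5.93, adjusted p = 0.00584), VA (-4.94, adjusted p = 0.00453) and OL (-10.27, adjusted p = 1.53e-04). It was the only gene called there, which is 0.00883%, 0.00921% and 0.00915% of the genes tested. In granule neurons the same fit gave -6.77 and did not call *Ttr* (edgeR, adjusted p = 0.248), and in PCs *Ttr* did not pass the filter. Leaving out WT mouse 1 gave the same values in BG (-5.93) and nearly the same in VA (-4.95) and OL (-10.30), and these were also the only calls (0.00886%, 0.00923% and 0.00916% of genes). With the batch term, both fits compare SCA1 mice 2 and 3 with WT mice 2 and 3, so they are not separate results. These calls rest on SCA1 mice 2 and 3, which held 4 and 0 *Ttr* UMIs in BG, 5 and 1 in VA, and 0 and 0 in OL. Without SCA1 mouse 1, *Ttr* thus passed the filter through WT mice 2 and 3 alone, where it was high. Without WT mouse 1, SCA1 mouse 1 stayed in the sums with 1862 UMIs in BG, 1760 in VA and 1894 in OL, alone in its batch. The calls are a description of these mice, and the OL value is not a measured fold.

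**Figure D5:**
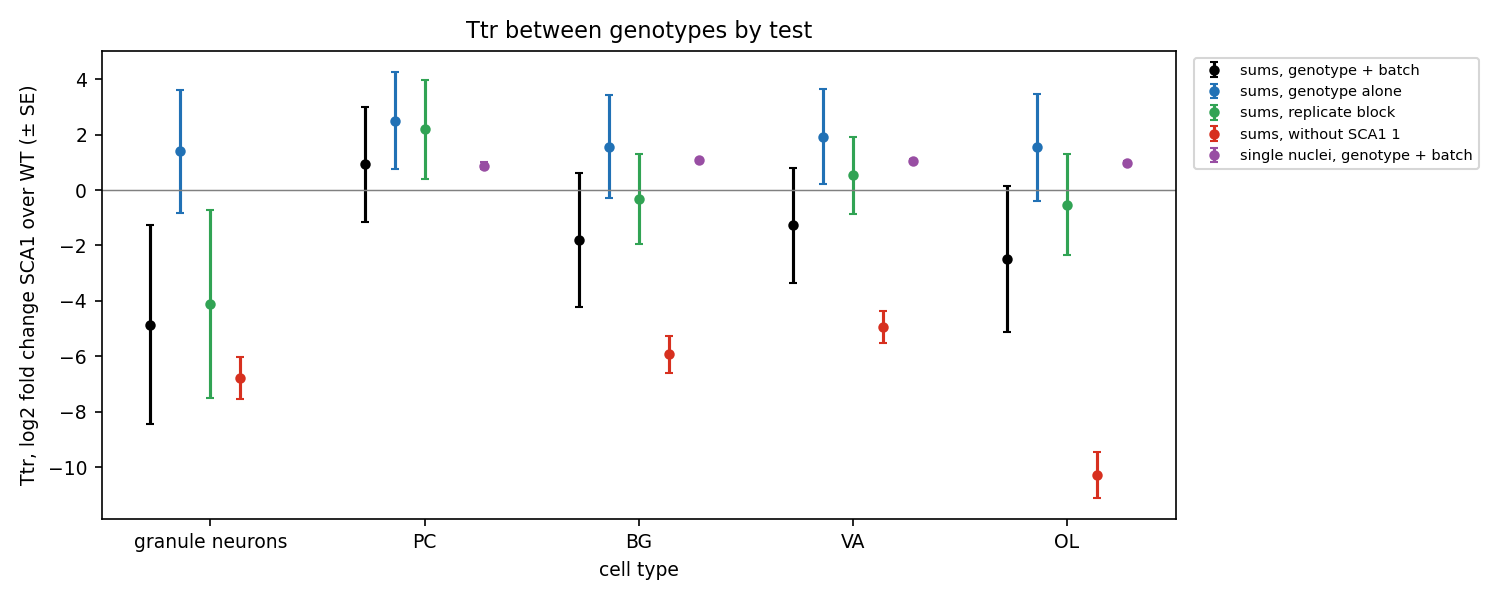
Log2 fold change of *Ttr*, SCA1 over WT, in 5 cell types (points, with bars of 1 SE) under 4 fits to sums per mouse and the test on single nuclei, which was run in PC, BG, VA and OL. Fits to all 6 mice span both signs, the fit without SCA1 mouse 1 lies below 0 in the 4 cell types where *Ttr* passed its filter, and the test on nuclei lies near 1.

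Each nucleus was thinned to 1000 UMIs, and the mice still differed. The share of other nuclei with a *Ttr* UMI was then 48.9%, 0.207% and 0.0321% in the SCA1 libraries and 0.363%, 10.5% and 13.1% in the WT libraries. It averaged 16.4% ± 28.1 in SCA1 mice and 7.99% ± 6.73 in WT mice (n = 3 each, two-sided exact permutation test, p = 1.00), a test that cannot go below p = 0.1. In PCs the shares averaged 5.15% ± 8.92 and 3.14% ± 4.65 (without thinning, 32.3% ± 56.0 and 21.8% ± 23.7), below those of granule neurons at 17.2% ± 29.6 and 8.34% ± 7.02 (without thinning, 33.2% ± 56.8 and 26.3% ± 27.0), and neither differed between genotypes beyond the spread (exact permutation test, adjusted p = 1.00 over 5 cell types). In SCA1 mouse 1, the shares of PCs and granule neurons were 96.9% and 98.8% without thinning and 15.4% and 51.3% after it. PCs there held 38919 UMIs per nucleus against 7848 in granule neurons, while *Ttr* UMIs per nucleus were 6.26 and 5.49. The gap after thinning is thus in part set by depth and is not a measure of *Ttr* per nucleus. No nucleus was lost at 1000 UMIs.

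In labelled nuclei themselves, 9 of the 10 genes passed the filter and none was called between genotypes (edgeR, 0% of 2941 genes called, 15 at an unadjusted p under 0.05). *Ttr* had a log2 fold change of -7.24 with an SE of 4.88 (adjusted p = 1.00), from 14023, 0 and 0 CPM in SCA1 mice and 0, 8781 and 3715 CPM in WT mice. With 0 *Ttr* UMIs in SCA1 mice 2 and 3 and WT mouse 1, this is not a measured fold. It ran from -12.83 to 0.60 with a mouse left out. All 9 genes had negative values, with a median of -1.74 against 0.00 over the genes tested. These numbers compare nuclei with at least 7 of the genes, present in 1 SCA1 and 2 WT mice, with nuclei that held ependyma markers. Without SCA1 mouse 1, 6 of the genes were called among 53 of 3416 tested (1.55%), and without WT mouse 1, 8 among 73 of 3442 (2.12%), all of the 6 and the 8 lower in SCA1 mice. With the batch term, both fits compare SCA1 mice 2 and 3 with WT mice 2 and 3, so they are not separate results. Most of these genes were at 0 UMIs in labelled nuclei of SCA1 mice 2 and 3 and passed the filter through the mice with nuclei rich in them, so that the direction was set by which mice had such nuclei. With no filter on low counts, 2 of the genes were, and 0.0113% of all. The share of nuclei with the label was 0.167% ± 0.0880 in SCA1 mice and 0.214% ± 0.0823 in WT mice (exact permutation test, p = 0.50), and that of nuclei with at least 7 of the genes 0.0428% ± 0.0742 and 0.0596% ± 0.0596 (exact permutation test, p = 1.00).

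A further list of 26 choroid plexus genes was read beside the 10. Of these, 19 passed the filter in other nuclei and none was called, with 11 log2 fold changes above 0 and 8 below and a median of 0.07 against 0.00 over all genes tested. The 5 with the highest mean level in labelled nuclei were *Cab39l*, *Ecrg4*, *Atp2b3*, *Clic6* and *Car12*. Of these, *Clic6* was at 4.53, 2.19 and 1.77 CPM in other nuclei of SCA1 mice and 5.43, 5.88 and 7.66 CPM in those of WT mice (log2 fold change -1.31, SE 0.37, edgeR adjusted p = 1.00). Groups without overlap, in either direction, were found for 4.02% of the genes tested, and this order is not that of *Ttr*. In PCs the log2 fold change of *Clic6* was -1.69 (SE 0.25, edgeR adjusted p = 0.0556), and in granule neurons -0.32 (SE 0.60). *Ecrg4*, which encodes a secreted peptide precursor, was at 15.7, 7.77 and 2.32 CPM in SCA1 mice and 5.17, 4.93 and 2.49 CPM in WT mice. Its level in labelled nuclei came from both kinds, at 485 CPM in the 22 nuclei and 283 CPM in the 61 with ependyma markers. In the 22, *Tmem72* (645 CPM) and *Lmx1a* (495 CPM) lay above it. *Atp2b3*, a calcium pump that neurons also express, was at 162 to 236 CPM in other nuclei of all mice, and *Cab39l* at 62.8 to 81.1 CPM. Of 12 genes for thyroid hormone and retinoid transport and reception, 11 passed the filter in other nuclei, 6 with log2 fold changes above 0 and 5 below, and none was called.

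Other contents of the libraries did not follow *Ttr* over the mice. The summed level of 5 blood genes in other nuclei was 718, 568 and 77.9 CPM in SCA1 mice and 721, 296 and 108 CPM in WT mice, so that WT mouse 1 was as high as SCA1 mouse 1. The 6 ependyma markers summed to 17.3, 15.2 and 7.08 CPM in SCA1 mice and 20.9, 7.58 and 10.7 CPM in WT mice. Their part in the levels of the 10 genes was not tested. The genes most like *Ttr* over 66 sums of mouse and label, among 10584 genes at a mean of at least 10 CPM, were *Surf6* (Pearson r = 0.39), *Ubald2* (0.39), *Sin3b* (0.37), *Sfswap* (0.37) and *Gm26917* (0.36). *Folr1* and *Sostdc1*, whose mean of 0.580 and 0.396 CPM lay below that minimum, had r of 0.57 and 0.52. The sums share libraries and depth, and these values are descriptions.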

How the data were processed

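The deposited tables hold UMI counts per gene and nucleus, whole numbers that the authors did not normalize. Per the study's methods, the authors aligned reads with CellRanger 5.0.1 (the submitters' processing notes also name 4.0.0 and 6.0.1) to mm10 with human *ATXN1* added, kept reads in introns and took out debris by DIEM, with a higher minimum in the first run, so that those libraries keep deeper nuclei. Cell labels are the authors' SingleR annotation, which was made from expression, so the choroid plexus label against the rest is a description. The 10 genes and the marker lists were chosen with earlier results of these data known. Named are these 10 genes, the 5 further choroid plexus genes highest in labelled nuclei, the 5 genes most like *Ttr* and fixed markers. *Ecrg4* was matched by a RefSeq synonym.

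Counts were summed per mouse, as the mouse is the replicate, and compared in edgeR 4.0.16 under R 4.3.3 with TMM factors, filterByExpr (minimum count 10, minimum total 15) and Benjamini-Hochberg adjustment over the genes tested. No doublet caller was run. Batch was inferred from library numbers in the labels. Same-numbered SCA1 and WT mice deviated together from their group means (correlations 0.89, 0.42 and 0.88), so the replicate block values stand beside the results they change. The test on nuclei used limma 3.58.1 and scran 1.30.0, and the alternatives were DESeq2 1.42.0, no filter, limma-trend on sums (prior count 2), scaling by RLE or by library size alone, label and cluster in accord, no batch term, nuclei of at least 3000 UMIs and each mouse left out. The fits to sums were tested on simulated counts with the same dispersion for every gene and no batch effect. That simulation held no gene that varied between mice as *Ttr* did, and the test on nuclei was not simulated. Shares after thinning to 1000 UMIs are expected values. A count of 0 was taken to allow 3 counts, and intervals are 95%.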

Additional observations from a re-analysis of the deposited data

Results flagged for a closer look

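By CPM, *Ttr* and 4 further genes lay in opposite order between genotypes in the 2 ranges of library numbers. In the lower range, with 1 mouse per genotype, the log2 difference of SCA1 minus WT in other nuclei was 7.66 for *Ttr*, 4.70 for *Folr1*, 4.14 for *Sostdc1*, 2.92 for *Kl* and 2.43 for *Kcne2*. In the higher range, with 2 mice per genotype whose CPM did not overlap, it was -7.21 for *Ttr*, -3.23 for *Folr1*, -2.15 for *Sostdc1*, -1.29 for *Kl* and -1.73 for *Kcne2*. *Kcne2* rests on 2 and 6 UMIs in SCA1 mice against 4 and 8 in WT mice, and *Sostdc1* on 5 and 4 against 6 and 16. By UMIs per nucleus, SCA1 mouse 3 lay above WT mouse 2 for *Kl* (0.00586 against 0.00478) and *Kcne2* (0.000879 against 0.000597). On that measure *Ttr*, *Folr1* and *Sostdc1* did not overlap. The share of all genes with such a reversal was not determined, so the count is not a result about these genes. The difference between the ranges was not tested, since the lower range holds a single mouse of each genotype. *Enpp2*, *Slc4a5*, *Htr2c*, *Prlr* and *Otx2* either overlapped between genotypes in the higher range or kept the same direction in both.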

How the results depend on the processing

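None of the 10 genes was called in other nuclei under any alternative run, the replicate block included. For *Ttr* there the log2 fold change was -4.19 with the replicate block, 1.43 with no batch term and -6.79 to 0.76 with a mouse left out. With no batch term *Ttr* was also positive in granule neurons (1.39), BG (1.56), VA (1.92) and OL (1.54). Other reversals of *Ttr* were in PC by DESeq2 (-5.35) and limma-trend on sums (-0.39), and in VA under the replicate block (0.54). The test on nuclei gave 0.88 in PC, 0.99 in OL, 1.05 in VA and 1.06 in BG. With no filter *Ttr* was called in OL (-2.40) and, with 1 other of the genes (2 in all), in labelled nuclei (-6.67). Both of these *Ttr* values rest on 0 *Ttr* UMIs in SCA1 mice 2 and 3. Left-out mice gave ranges of -6.77 to 0.78 in granule neurons, -7.56 to 4.60 in PC, -10.30 to 1.50 in OL, -4.95 to 1.96 in VA, -5.93 to 1.84 in BG and -12.83 to 0.60 in labelled nuclei, where 0 to 8 of the genes were called. The lowest values in PC, OL and labelled nuclei rest on 0 *Ttr* UMIs in SCA1 mice 2 and 3 and are not measured folds. Without SCA1 mouse 1, *Ttr* in PCs did not pass the filter and gave no value.

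DESeq2 turned *Folr1* (-0.81), *Kl* (-0.06), *Kcne2* (-0.22) and *Sostdc1* (-0.59) in other nuclei, and limma-trend on sums *Folr1* (-0.29) and *Kcne2* (-0.19). With a mouse left out they ran from -2.49 to 1.54 for *Folr1*, -1.28 to 0.97 for *Kl*, -1.62 to 1.36 for *Kcne2*, -2.28 to 2.41 for *Sostdc1*, -0.24 to 0.37 for *Enpp2*, -0.09 to 0.68 for *Slc4a5* and -0.23 to 0.03 for *Otx2*. The count of called genes in other nuclei was 1, against 19 by DESeq2, 29 with the replicate block and 0 to 1 with a mouse left out. The labelled share of nuclei differed by -0.0465 percentage points, by -0.0869 to 0.0004 with a mouse left out, and by 0.0395 where label and cluster had to be the same. The share with a *Ttr* UMI at fixed depth ran, with a mouse left out, from -7.87 to 16.5 percentage points in all other nuclei, -8.21 to 17.4 in granule neurons, -3.14 to 4.68 in PC, -7.59 to 17.3 in OL, -7.42 to 16.6 in VA and -6.18 to 15.5 in BG. The cause of these changes was not tested. The mice fall into separate clusters of 3 by *Ttr*, so no correlation of *Ttr* with the yield of labelled nuclei is given.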
